A study of Mus musculus with 10 samples.

Results

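The AP-1 transcription factor family was followed through the mouse hippocampus before and after pilocarpine (PILO)-induced status epilepticus (SE), with and without levetiracetam (LEV). Its members were the 8 genes *Fos*, *Fosb*, *Fosl1*, *Fosl2*, *Jun*, *Junb*, *Jund* and *Atf3*, taken by their symbols from a table of 15900 genes. These members and the gene lists used below were chosen with earlier results of these data known. The levels come from cap analysis of gene expression (CAGE), which sequences the capped 5′ ends of transcripts. Because each transcript gives 1 tag whatever its length, levels in CPM (tags of a gene divided by those of all listed genes and scaled to a common total) can be compared between genes without a length correction. Whole hippocampi of male ICR (CD-1) mice aged 9 to 10 weeks served as the tissue, and each of the 5 groups had 2 of them. The pre-SE mice are untreated by the labels, while the methods give controls saline in place of PILO. The SE 6 h and SE 2 days mice had received PILO at 290 mg/kg after methyl scopolamine, and convulsions were ended with diazepam once SE, defined by 5 generalized convulsive seizures, had been reached. The SE + LEV 6 h and SE + LEV 2 days mice had the same treatment and oral LEV, an antiseizure drug, at 360 mg/kg, given 1 time before 6 h and 5 times before 2 days. PILO, scopolamine, diazepam and the seizures therefore cannot be told apart in the comparisons with pre-SE, and the 2 time points of LEV differ in the number of doses as well as in time.

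AP-1 is a dimer of basic leucine zipper proteins. Fos proteins bind DNA only together with a partner, usually a Jun protein, whereas Jun proteins can also pair among themselves, and Atf3 pairs with Jun proteins or with itself. *Fos*, *Fosb*, *Junb* and *Atf3* are classical immediate early or stress response genes that neurons switch on after strong activity, *Jund* is widely expressed without stimulation, and *Fosl1* and *Fosl2* encode the Fos-related antigens Fra-1 and Fra-2, which lack the strong transactivation domain of Fos.

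All 8 members were tested, 7 of them with at least 0.1 CPM in each of the 10 libraries. *Fosl1* reached that level in the 8 libraries taken after SE and in neither pre-SE library, so it entered the test through the groups in which it was high. The libraries held 10540698 to 51710968 tags on the listed genes (median 26671413), and 3 tags, below which a gene counts here as not detected, came to 0.058 to 0.285 CPM by library. Differences are given as log2 fold changes (logFC) on the log2(CPM + 0.1) scale, which understates the change of genes with low CPM, with their standard errors (s.e.), from 1 limma fit of all 10 libraries with Benjamini-Hochberg adjustment over 15851 genes, and a gene was called at an adjusted p of at most 0.05. Nothing says that mice were pooled, and replicates 1 and 2 of a group are taken as separate mice. The defining markers of hippocampal neurons were present in every library (5 of 6 genes listed, summed level 362 to 568 CPM), and those of leukocytes from blood were low (2 of 5 listed, 0.59 to 5.7 CPM). Choroid plexus markers (3 of 4 listed) differed between mice of the same group, with summed levels of 1690 CPM in pre-SE replicate 2, 3970 CPM in SE 6 h replicate 2, 860 CPM in SE + LEV 6 h replicate 1 and 1490 CPM in SE + LEV 2 days replicate 1, and 8.15 to 65.9 CPM in the other 6 libraries. In whole tissue, fewer cells of a type and less RNA per cell cannot be told apart, which holds for every level below.

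After SE, the family rose almost as a whole. At 6 h, 7 of the 8 members were called higher than in pre-SE mice (2.76% of all genes), led by *Atf3*, *Fosl1*, *Fosb* and *Fos*. By 2 days *Fos*, *Fosb*, *Fosl2*, *Jun* and *Jund* were called lower than at 6 h when both treatments were averaged (2.28% of all genes). In that average *Fosl1*, *Junb* and *Atf3* were not called lower (logFC 0.1, −0.57 and −0.85), with a wide interval for *Fosl1* (−1.15 to 1.35). In SE mice alone limma called no member between the times (1.11% of all genes were called lower), and the averaged calls depended on single libraries. Whether the course of *Fosl1* differs from that of its relatives could not be decided from these mice. With LEV, the estimates of every member other than *Jund* lay below those of SE mice at both times, but no member was called in limma. DESeq2 called 6 members lower over both times together, and the share of all genes that it called was not taken.

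**Figure D1:**
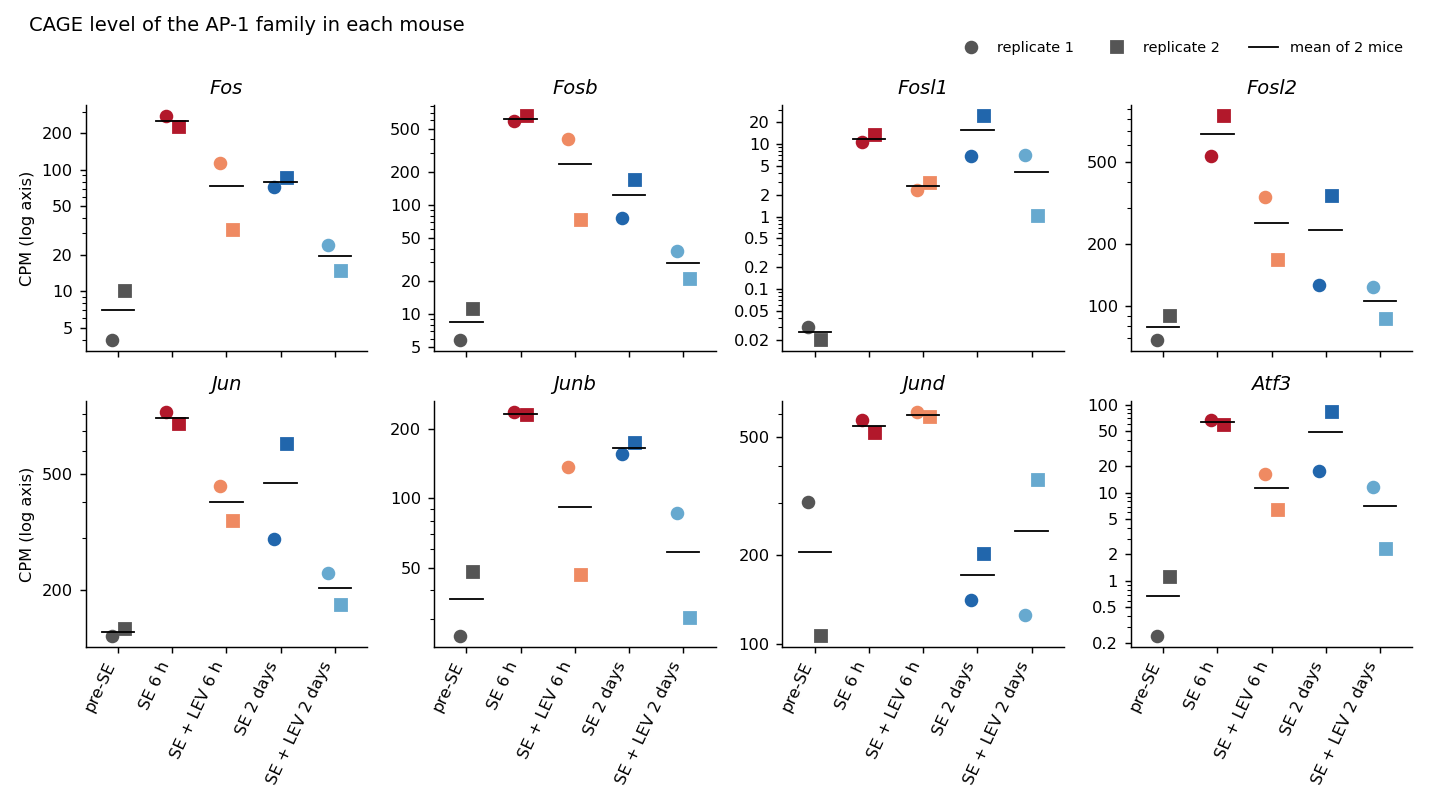
CPM on a log axis in each of the 10 mice for the 8 members, with circles for replicate 1, squares for replicate 2 and a line at the mean of the 2 mice of a group. *Fosl1* goes from 0.02 and 0.03 CPM in pre-SE mice to 10.68 and 13.16 CPM at 6 h, and *Jund* is the member whose SE + LEV 6 h mice lie above its SE 6 h mice.

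*Fos*, the founding member of the family and a standard marker of neuronal activation, lies at chr12:86814840-86818223 on the plus strand of mm9 with 4 exons. Its level was 4.0 and 9.98 CPM in the pre-SE mice and 276.28 and 227.69 CPM in the SE 6 h mice. It was 115.06 and 32.16 CPM in SE + LEV 6 h, 72.88 and 85.64 CPM in SE 2 days, and 24.07 and 14.7 CPM in SE + LEV 2 days. The mice of the 5 groups therefore did not overlap, except that the SE 2 days mice fell between the 2 SE + LEV 6 h mice. Against pre-SE the logFC was 5.29 at 6 h (s.e. 0.56, n = 2 and 2, limma adjusted p = 0.0023) and 3.62 at 2 days (s.e. 0.56, limma adjusted p = 0.005).

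*Fosb*, whose short splice form ΔFosB is known to persist in neurons after repeated stimulation, lies at chr7:19888070-19895394 on the minus strand with 4 exons. The gene table does not separate the splice forms. *Fosb* had 5.9 and 11.22 CPM before SE and 585.83 and 645.45 CPM at 6 h, the highest level of any Fos gene in SE 6 h replicate 1. In SE + LEV 6 h the levels were 397.99 and 72.39 CPM, the widest gap as a ratio between the 2 mice of this group for any member. At 2 days it had 76.53 and 170.51 CPM without LEV and 37.83 and 21.07 CPM with LEV. Both mice of SE + LEV 2 days were above both pre-SE mice and below both SE 2 days mice. The rise was 6.22 at 6 h (s.e. 0.69, limma adjusted p = 0.0023) and 3.79 at 2 days (s.e. 0.69, limma adjusted p = 0.011).

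The promoters of *Fos*, *Fosb* and *Atf3* are shown as those of the Fos gene with the best-known induction, of the Fos gene that fell most between 6 h and 2 days, and of the member with the highest logFC against pre-SE at 6 h. They are the 250 bases before the start given by RefSeq (GRCm38.p6), written 5′ to 3′ in the direction of the gene, each found by exact match at 1 place of mm9 (*Fos* chr12:86814590-86814839, plus strand, *Fosb* chr7:19895395-19895644, minus strand, and *Atf3* chr1:193007213-193007462, minus strand). Capitals mark TGACGT in either direction, the core of the cyclic AMP response element, and the TATA box TATAAA.
Fos: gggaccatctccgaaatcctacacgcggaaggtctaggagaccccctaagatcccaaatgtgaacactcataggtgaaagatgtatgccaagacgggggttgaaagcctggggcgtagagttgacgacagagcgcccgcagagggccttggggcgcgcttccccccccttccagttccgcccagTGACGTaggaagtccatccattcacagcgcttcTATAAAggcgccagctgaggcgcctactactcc
Fosb: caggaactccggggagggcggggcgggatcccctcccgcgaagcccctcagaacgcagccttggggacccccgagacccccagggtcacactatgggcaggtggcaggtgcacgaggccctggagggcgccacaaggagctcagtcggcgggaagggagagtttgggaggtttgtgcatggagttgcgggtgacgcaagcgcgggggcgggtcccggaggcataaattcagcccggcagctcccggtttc
Atf3: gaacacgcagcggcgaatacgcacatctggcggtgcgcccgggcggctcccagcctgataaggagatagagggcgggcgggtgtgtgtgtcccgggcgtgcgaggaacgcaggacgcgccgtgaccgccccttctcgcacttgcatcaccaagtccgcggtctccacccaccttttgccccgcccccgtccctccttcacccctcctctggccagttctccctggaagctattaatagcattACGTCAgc

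The *Fos* window held TGACGT 66 to 61 bases and TATAAA 33 to 28 bases before the start, and the *Atf3* window held TGACGT on the opposite strand, 8 to 3 bases before the start. A promoter was matched for 7 of the 8 members, all except *Fosl1*. The windows of *Fosb*, *Fosl2*, *Jun*, *Junb* and *Jund* held none of the motifs searched on both strands, which were TGANTCA (AP-1 site), TGACGTCA (cyclic AMP response element), the CArG box, TTCNNNGAA (STAT site), the NF-kappaB site, TATAAA and TGACGT. Each full TGACGTCA also holds TGACGT. Of 32841 promoters of the same length, 6.471% held TGACGT, 12.369% TATAAA, 6.751% TGANTCA, 1.547% TGACGTCA, 1.468% the CArG box, 7.022% TTCNNNGAA and 0.356% the NF-kappaB site. A match describes the letters of the window and is not evidence of binding.

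*Fosl1* (Fra-1) lies at chr19:5447703-5455945 on the plus strand with 4 exons. It was nearly silent before SE, with 1 tag in each pre-SE library (0.03 and 0.02 CPM), which is below the limit of detection. The SE 6 h mice had 10.68 and 13.16 CPM and the SE + LEV 6 h mice 2.29 and 2.94 CPM, 2 pairs that did not overlap. At 2 days the spread was wider, with 6.78 and 24.17 CPM in SE mice and 7.16 and 1.03 CPM in SE + LEV mice. Replicate 1 of SE + LEV 2 days was thus level with replicate 1 of SE 2 days, and the 2 groups overlapped. Over the tags of both mice, the ratio to pre-SE was 463 at 6 h (95% interval 127 to 3830) and 604 at 2 days (166 to 4990), against 99.3 (26.8 to 831) with LEV at 6 h and 200 (55.0 to 1660) with LEV at 2 days. These exact intervals cover counting error alone and are wide because the reference rests on 2 tags. On the log2(CPM + 0.1) scale the rise was 6.58 at 6 h (s.e. 0.79, limma adjusted p = 0.003) and 6.69 at 2 days (s.e. 0.79, limma adjusted p = 0.0014). *Fosl1* overlaps *Ccdc85b* on the opposite strand, and whether tags were counted by strand is not stated. *Ccdc85b* had 149 to 227 CPM in every library, pre-SE included, where *Fosl1* had 1 tag each.

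*Fosl2* (Fra-2) lies at chr5:32438845-32460204 on the plus strand with 4 exons and was the most abundant Fos gene before SE, with 69.08 and 89.52 CPM. It reached 534.06 and 827.7 CPM at 6 h and had 335.65 and 167.83 CPM in SE + LEV 6 h. At 2 days it had 127.2 and 340.78 CPM in SE mice and 124.07 and 87.07 CPM in SE + LEV mice, so the latter overlapped with pre-SE. It was called higher at 6 h (logFC 3.08, s.e. 0.47, limma adjusted p = 0.0083) and not at 2 days (logFC 1.40, 95% interval 0.36 to 2.45, limma adjusted p = 0.13).

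Of the Jun genes, *Jun* lies at chr4:94715725-94718913 on the minus strand as 1 exon. It already had 139.47 and 147.22 CPM before SE and reached 810.19 and 741.58 CPM at 6 h, the highest mean of any member in that group. Its levels were 454.7 and 344.38 CPM in SE + LEV 6 h, 299.04 and 631.94 CPM in SE 2 days, and 228.13 and 177.02 CPM in SE + LEV 2 days. No mouse after SE was as low as the pre-SE mice, and in each LEV group both mice lay below both SE mice of the same time. The logFC was 2.43 at 6 h (s.e. 0.33, limma adjusted p = 0.005) and 1.60 at 2 days (s.e. 0.33, limma adjusted p = 0.02). *BC042782*, which overlaps *Jun* on the opposite strand, had 0.57 to 3.36 CPM.

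*Junb*, a Jun protein that can oppose Jun at many sites, lies at chr8:87500811-87502617 on the minus strand as 1 exon. It had 25.38 and 47.82 CPM before SE, 235.94 and 230.7 CPM at 6 h, and 136.36 and 46.58 CPM in SE + LEV 6 h. At 2 days it had 156.03 and 173.76 CPM in SE and 86.57 and 30.27 CPM in SE + LEV. Replicate 2 of each LEV group lay within the range of the pre-SE mice. The rise was 2.74 at 6 h (s.e. 0.55, limma adjusted p = 0.028) and 2.24 at 2 days (s.e. 0.55, limma adjusted p = 0.044), in each case the call nearest to the threshold among the members called against pre-SE in SE mice.

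*Jund*, at chr8:73221638-73224515 on the plus strand as 1 exon, was the member with the highest mean level before SE, at 301.56 and 106.61 CPM, and the one with the most different course. The SE 6 h mice had 571.11 and 517.93 CPM and the SE + LEV 6 h mice 606.15 and 585.92 CPM. At 2 days there were 140.26 and 201.17 CPM in SE and 125.55 and 356.72 CPM in SE + LEV. The 4 mice at 6 h were therefore all higher than the other 6 mice, with LEV or without it, while the 2 mice of pre-SE and those of SE + LEV 2 days lay far apart. It was not called at 6 h (logFC 1.60, 95% interval 0.44 to 2.76, limma adjusted p = 0.15) or at 2 days (logFC −0.09, 95% interval −1.25 to 1.07, limma adjusted p = 0.95). *Gm11175*, which overlaps it on the opposite strand, had 5.4 to 13.35 CPM.

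*Atf3*, a stress-induced partner of Jun proteins, lies at chr1:192994175-193007219 on the minus strand with 4 exons. It had 0.24 and 1.1 CPM before SE and 67.45 and 59.54 CPM at 6 h, against 16.45 and 6.36 CPM in SE + LEV 6 h. At 2 days it had 17.55 and 81.96 CPM in SE and 11.75 and 2.3 CPM in SE + LEV. All mice after SE were above the pre-SE mice, and the SE 2 days mice lay on either side of the SE 6 h mice. The logFC was 6.63 at 6 h (s.e. 0.91, limma adjusted p = 0.005) and 5.90 at 2 days (s.e. 0.91, limma adjusted p = 0.0048).

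At 6 h after SE, 7 of 8 members were called higher, all except *Jund*, where 2.76% of all genes tested were called higher, and the mice of the 2 groups did not overlap for any of the 8 (18.6% of all genes lay wholly above pre-SE). The median logFC of the members was 4.19 against −0.13 over all genes, a shift that a median-of-ratios scaling brought to −0.005 without changing a member's call. *Atf3*, *Fosl1*, *Fosb*, *Fos*, *Fosl2*, *Junb* and *Jun* stood at positions 5, 6, 11, 27, 168, 220 and 281 from the top of 15851 genes. *Junb* lost its call without any of the 4 libraries compared (5 or 6 members called), and *Fosl2* lost it without pre-SE replicate 1 or SE 6 h replicate 2. DESeq2 on the recovered tags called all 8, without a share of all genes to set beside that count. The summed level of 5 endothelial markers was 57.4 to 62.9 CPM in pre-SE and 110 to 170 CPM in SE 6 h (*Cdh5* was called higher), and that of 5 microglia markers was 352 to 411 and 252 to 276 CPM (*P2ry12* and *Tmem119* were called lower). No marker of these 2 lists was at 0. Summed markers of neurons (9050 to 10100 and 5780 to 8620 CPM), hippocampal neurons (485 to 568 and 362 to 385 CPM) and astrocytes (2070 to 2190 and 1750 to 1810 CPM) were lower in SE 6 h without overlap. Those of leukocytes from blood were higher (0.59 to 1.6 and 3.3 to 5.07 CPM), while oligodendrocyte and choroid plexus markers overlapped. None of these other markers was called, and the part of all markers in the rise of the family was not tested.

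At 2 days, 6 of 8 members were called higher, namely *Fos*, *Fosb*, *Fosl1*, *Jun*, *Junb* and *Atf3*, where 5.07% of all genes were, with a median logFC of 2.93 against −0.03 over all genes. Both mice lay above both pre-SE mice for 7 of 8 members, all except *Jund* (26.3% of all genes). *Fosl1* was the highest of them at position 12, followed by *Atf3* at 26, *Fosb* at 176 and *Fos* at 197. This count depended on single libraries. Without SE 2 days replicate 2, the mouse with the higher level of every member, *Fosl1* was the 1 member still called, and without pre-SE replicate 1 the calls of *Fosb*, *Jun* and *Junb* were lost and 3 remained. *Fosl1* was called in every setting tried for this comparison (adjusted p 1.6e-11 to 0.019), while *Junb* lost its call with a pseudocount of 1, median-of-ratios scaling, the replicate block and edgeR, and *Jun* in a fit of only the groups compared. The summed level of 5 microglia markers was 766 to 931 CPM in SE 2 days against 352 to 411 CPM in pre-SE and 252 to 276 CPM in SE 6 h, and that of 7 neuron markers was 4970 to 6140 CPM against 9050 to 10100 and 5780 to 8620 CPM. None of these microglia and neuron markers was at 0. Oligodendrocyte markers (4 genes) summed to 1570 to 2450 CPM in SE 2 days against 4520 to 4970 CPM in pre-SE. Astrocyte markers (5 genes) summed to 1230 to 1290 against 2070 to 2190 CPM, although *Aqp4* among them was called higher. The part of all these markers in the levels of the family was not tested.

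**Figure D2:**
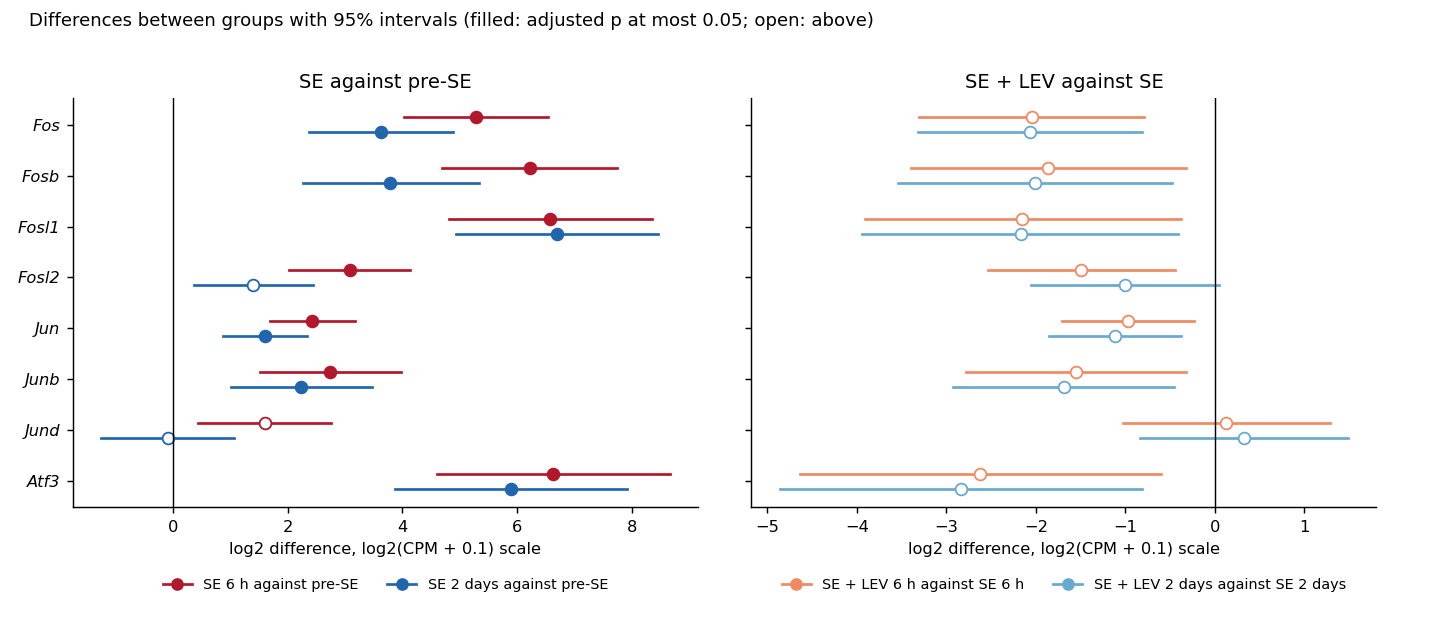
logFC (x axis, log2(CPM + 0.1) scale) with 95% intervals of the 8 members, for SE against pre-SE on the left and SE + LEV against SE on the right at both times, with filled points for adjusted p at most 0.05. On the left 13 of 16 points are filled, whereas on the right none is, although 13 of 16 intervals end below 0.

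Whether the members stayed high was addressed by the comparison of 2 days with 6 h. Averaged over mice with and without LEV, 5 of 8 members were called lower at 2 days, where 2.28% of all genes were called lower, and the median logFC of the members was −1.17 against 0.09 over all genes. *Fosb* had the largest fall (logFC −2.51, 95% interval −3.59 to −1.42, limma adjusted p = 0.011), followed by *Fos* (−1.68, limma adjusted p = 0.028), *Jund* (−1.59, limma adjusted p = 0.024), *Fosl2* (−1.43, limma adjusted p = 0.025) and *Jun* (−0.91, limma adjusted p = 0.039). *Jund* was the member whose 4 mice at 2 days all lay below its 4 mice at 6 h, which held for 3.89% of all genes. *Fosl1* differed by 0.10 (95% interval −1.15 to 1.35, limma adjusted p = 0.92), an interval that allows a fall as well as a rise of 1 log2 unit. *Junb* (−0.57, −1.44 to 0.30) and *Atf3* (−0.85, −2.28 to 0.58) were not called either. *Jun* lost its call with the replicate block, with only the groups compared, with edgeR and without either pre-SE mouse or SE + LEV 2 days replicate 2. None of the 5 remained without SE 2 days replicate 1, *Fosb* alone remained without SE 6 h replicate 2 or SE + LEV 6 h replicate 1, and 2 or 3 remained without SE 6 h replicate 1, SE + LEV 6 h replicate 2, SE 2 days replicate 2 or SE + LEV 2 days replicate 1. All 5 microglia markers were called higher at 2 days in this comparison.

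In SE mice alone, no member was called between 2 days and 6 h by limma (1.11% of all genes were called lower) or by edgeR, whereas 5 members were lower at an unadjusted p under 0.05 (7.29% of all genes). For 6 members, all except *Fosl1* and *Atf3*, both mice at 2 days lay below both at 6 h (20.1% of all genes). A fit of these 4 libraries alone called *Fos*, *Fosb* and *Jund*, and DESeq2 called these and *Fosl2*. The mean at 2 days was 20.1% of that at 6 h for *Fosb*, 31.4% for *Jund*, 31.5% for *Fos*, 34.4% for *Fosl2*, 60.0% for *Jun*, 70.7% for *Junb*, 78.4% for *Atf3* and 130% for *Fosl1*. *Fosl1* was thus the member with a mean above that of 6 h, through replicate 2, while replicate 1 at 6.78 CPM was below both SE 6 h mice.

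To compare *Fosl1* directly with each other member, its log2 ratio to that member was taken within each mouse, so that the depth and scaling of the library cancel out. The 4 mice of each time were both SE and both SE + LEV mice. Their SD therefore holds any treatment difference as well as the spread between mice. The ratio to *Fosb* averaged −5.83 ± 1.16 (SD, n = 4) at 6 h and −3.23 ± 0.80 (SD, n = 4) at 2 days, and the 4 mice of 2 days all lay above the 4 of 6 h (exact two-sided permutation p = 0.029, the smallest that 70 arrangements allow). The ratio to *Fos* went from −4.45 ± 0.92 to −2.67 ± 1.04 (SD, n = 4 each, exact permutation p = 0.057). For the other 5 members the ratio was higher at 2 days by 0.67 (*Junb*) to 1.69 (*Jund*), with exact permutation p-values of 0.086 to 0.37. After adjustment over the 7 ratios none passed (0.20 to 0.37). With 70 arrangements a single fully separated ratio, such as that to *Fosb*, cannot pass this adjustment. The adjusted values therefore could not decide whether *Fosl1* differs in course from its relatives in these 8 mice. As plain levels, *Fosl1* had 1.82% and 2.04% of the CPM of *Fosb* in the SE 6 h mice and 8.86% and 14.2% in the SE 2 days mice. The corresponding values with LEV were 0.575% and 4.06% at 6 h and 18.9% and 4.89% at 2 days.

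**Figure D3:**
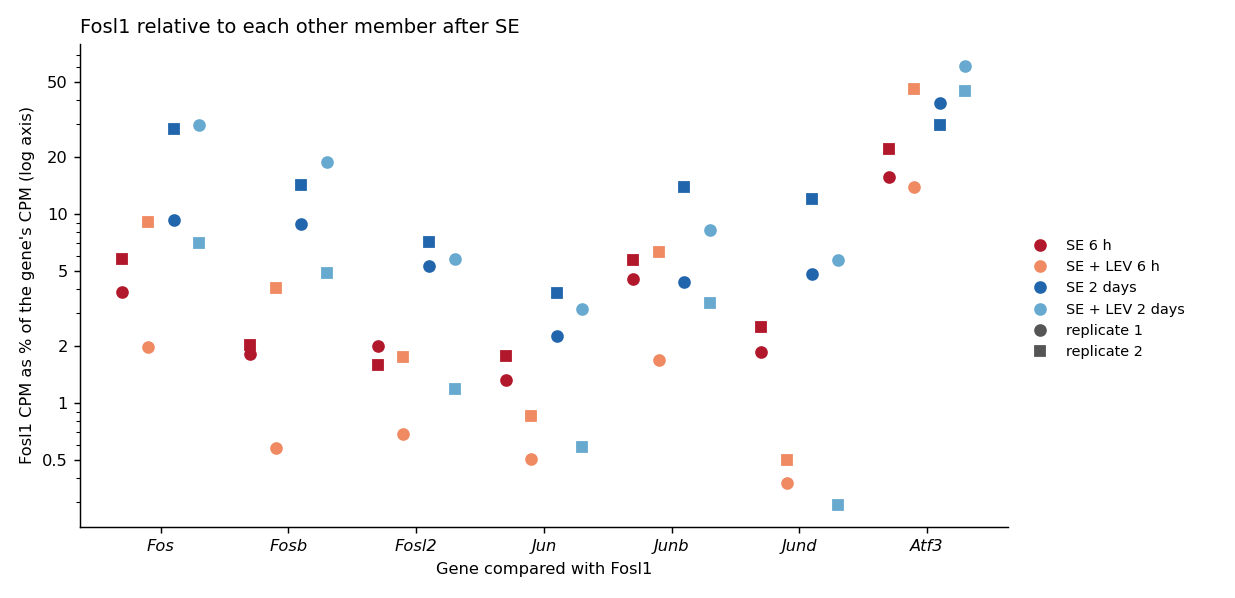
CPM of *Fosl1* as a percentage of the CPM of each other member in the 8 mice after SE (log axis), with circles for replicate 1 and squares for replicate 2. For *Fosb* the 4 mice at 2 days (4.89% to 18.9%) lie above the 4 at 6 h (0.575% to 4.06%), while for the other members the 2 times overlap.

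The question of whether LEV lowers the family was addressed by SE + LEV against SE at each time. At 6 h, 7 of 8 members were lower with LEV in both mice against both (13.4% of all genes), with a median logFC of −1.70 against 0.04 over all genes. The LEV mean was 18.0% of the SE mean for *Atf3*, 21.9% for *Fosl1*, 29.2% for *Fos*, 37.0% for *Fosl2*, 38.2% for *Fosb*, 39.2% for *Junb* and 51.5% for *Jun*, against 109% for *Jund*. None of the members was called by limma (0.0126% of all genes were called lower), edgeR or DESeq2, although these 7 were lower at an unadjusted p under 0.05 in limma (3.42% of all genes). The largest differences were those of *Atf3* (logFC −2.62, 95% interval −4.64 to −0.60, limma adjusted p = 0.87), *Fosl1* (−2.15, −3.91 to −0.38, limma adjusted p = 0.95) and *Fos* (−2.04, −3.30 to −0.79, limma adjusted p = 0.61). *Jund* differed by 0.13 (95% interval −1.03 to 1.29), with both LEV mice just above both SE mice.

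At 2 days, 6 of 8 members were lower with LEV in both mice against both (12.2% of all genes). The exceptions were *Fosl1*, through the 7.16 CPM of SE + LEV replicate 1 against 6.78 CPM of SE replicate 1, and *Jund*. The LEV mean was 14.1% of the SE mean for *Atf3*, 23.8% for *Fosb*, 24.5% for *Fos*, 26.5% for *Fosl1*, 35.4% for *Junb*, 43.5% for *Jun*, 45.1% for *Fosl2* and 141% for *Jund*. The median logFC was −1.84 against 0.04 over all genes, and *Atf3* (−2.84), *Fosl1* (−2.17), *Fos* (−2.06) and *Fosb* (−2.01) stood at positions 14, 29, 41 and 43 from the bottom of 15851 genes. No member was called by limma (0.0% of all genes were called lower), edgeR or DESeq2, and 6 were lower at an unadjusted p under 0.05 in limma (1.39% of all genes). The summed microglia markers were 766 to 931 CPM without and 822 to 1040 CPM with LEV. Oligodendrocyte markers (4 genes, 1570 to 2450 CPM without and 2900 to 4150 CPM with LEV) and astrocyte markers (5 genes, 1230 to 1290 CPM and 1340 to 1700 CPM) did not overlap between the 2 groups, none of these genes was called by limma, and their part in the LEV difference was not tested.

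Averaged over both times, the LEV difference was −2.73 for *Atf3* (95% interval −4.16 to −1.30), −2.16 for *Fosl1* (−3.41 to −0.91), −2.05 for *Fos* (−2.94 to −1.17), −1.93 for *Fosb* (−3.02 to −0.85), −1.62 for *Junb* (−2.49 to −0.74), −1.24 for *Fosl2* (−1.98 to −0.50) and −1.04 for *Jun* (−1.56 to −0.52), with limma adjusted p-values of 0.24 to 0.58. For 6 of these, all except *Fosl1*, both LEV mice lay below both SE mice at both times, which held for 2.60% of all genes. Limma called 0 members (0.0% of all genes), with 7 lower at an unadjusted p under 0.05 (3.63% of all genes), and edgeR called 0. DESeq2 called 6, namely *Fos*, *Fosb*, *Fosl1*, *Fosl2*, *Jun* and *Junb*, but the share of all genes that it called was not taken. *Fosl1* was called by limma without SE + LEV 2 days replicate 1. *Jund* had a difference of 0.23 (−0.59 to 1.05). The LEV difference at 2 days was set against that at 6 h, and it differed by −0.22 to 0.48 for the 8 members with limma adjusted p-values of 1.0 (0 members at an unadjusted p under 0.05, and 0 called by edgeR or DESeq2). The intervals were wide, for example −2.52 to 2.47 for *Fosl1*, −1.80 to 1.75 for *Fos* and −1.18 to 0.90 for *Jun*. The log2 ratios of *Fosl1* to the other members did not separate LEV from SE mice either, with differences of −2.39 (*Jund*) to 0.57 (*Atf3*) and exact permutation p-values of 0.11 to 0.89, where 36 arrangements within each time allow no p below 0.056.

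Against pre-SE mice, 1 member was called higher in SE + LEV mice at each time. At 6 h *Fosb* was called higher (logFC 4.37, s.e. 0.69, limma adjusted p = 0.033, 1 of 8 members against 0.315% of all genes). The rises of *Fosl1* (4.43, limma adjusted p = 0.058), *Fos* (3.25, limma adjusted p = 0.052) and *Atf3* (4.02, limma adjusted p = 0.13) were not called. DESeq2 called 7 members here, again without a share of all genes to set beside that count. The call of *Fosb* was lost without pre-SE replicate 1 or 2, SE 6 h replicate 1 or 2, or SE + LEV 6 h replicate 1, with a pseudocount of 0.5 or 1, with the replicate block and in a fit of only the groups compared, which called *Fosl1* instead. Without SE + LEV 6 h replicate 2 *Fos* was called too, and without either SE + LEV 2 days mouse *Fos* and *Fosl1* were. At 2 days *Fosl1* was the 1 member called (logFC 4.52, s.e. 0.79, limma adjusted p = 0.013, 2.83% of all genes), with 7.16 and 1.03 CPM against 1 tag in each pre-SE mouse. Its call was lost without either pre-SE mouse or without SE + LEV 2 days replicate 1, with a pseudocount of 0.5 or 1 and in a fit of only the groups compared, and with *Atf3* it made 2 calls without SE + LEV 2 days replicate 2. All comparisons that use the SE or the pre-SE mice share those mice, so the rise after SE and the lower level with LEV are not independent of each other.

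The make-up of the Fos genes shifted along with their amount. Before SE, *Fosl2* gave 87.4% and 80.8% of the tags of the 4 Fos genes, and at 6 h it gave 38% and 48.3%. *Fosb* went from 7.46% and 10.1% to 41.6% and 37.7%. With LEV at 6 h, replicate 1 resembled the SE mice with 46.8% *Fosb* and 39.4% *Fosl2*, whereas replicate 2 had 26.3% *Fosb* and 61.0% *Fosl2*. *Fosl1* stayed a small part throughout. It gave 0.759% (exact 95% binomial interval 0.68 to 0.845) and 0.768% (0.663 to 0.884) of the tags of the Fos genes in SE 6 h. In SE 2 days its share was 2.39% (2.04 to 2.79) and 3.89% (3.57 to 4.24), above all 4 mice at 6 h. In SE + LEV 2 days it was 3.71% (3.31 to 4.13) and 0.829% (0.537 to 1.22), the latter lower than the 1.07% (0.727 to 1.51) of SE + LEV 6 h replicate 2. The summed Fos genes per summed Jun gene CPM were 0.169 and 0.367 in pre-SE, 0.87 and 1.15 in SE 6 h, 0.711 and 0.282 in SE + LEV 6 h, 0.476 and 0.617 in SE 2 days, and 0.439 and 0.22 in SE + LEV 2 days. SE 6 h mice thus had about as many Fos as Jun tags, and in every other group the Jun genes were in excess.

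**Figure D4:**
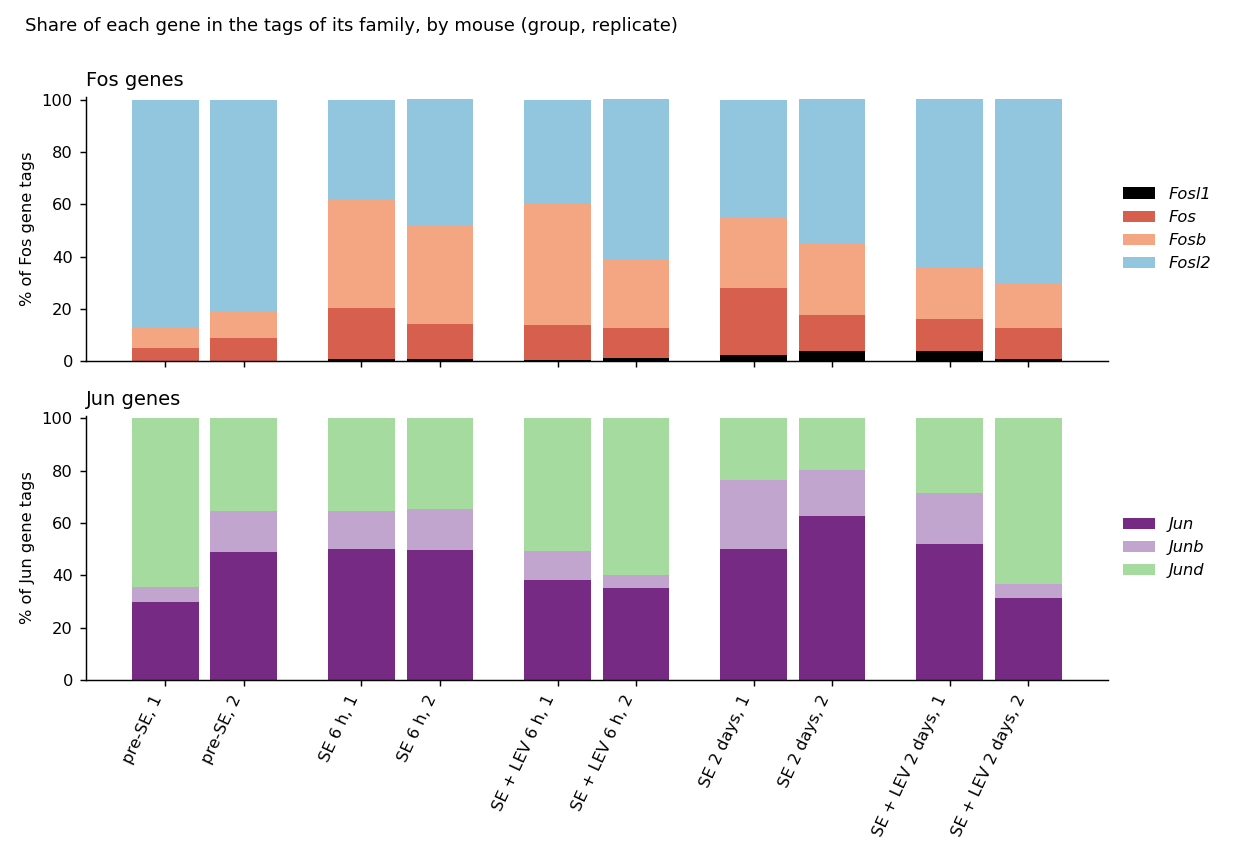
Share (%) of each gene in the tags of the 4 Fos genes (top) and of the 3 Jun genes (bottom), with 1 bar for each of the 10 mice. *Fosl2* fills 80.8% and 87.4% of the pre-SE bars and 38% and 48.3% of the SE 6 h bars, and the black *Fosl1* segment is largest in SE 2 days replicate 2 at 3.89%.

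Among the Jun genes, *Jund* gave 35.3% and 34.8% of the tags in SE 6 h, 50.6% and 60.0% in SE + LEV 6 h, 23.6% and 20.0% in SE 2 days, and 28.5% and 63.2% in SE + LEV 2 days. Its share was thus higher with LEV in both mice at both times, in mice whose levels of *Jun* and *Junb* were lower. *Junb* ranged from 4.77% in SE + LEV 6 h replicate 2 to 26.2% in SE 2 days replicate 1.

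The order of levels within a group also changed. Before SE it was *Jund*, *Jun*, *Fosl2*, *Junb*, *Fosb*, *Fos*, *Atf3* and *Fosl1* by mean, with *Jund* and *Jun*, and *Fosb* and *Fos*, overlapping between mice. At 6 h after SE it was *Jun* (mean 776 CPM), *Fosl2* (681), *Fosb* (616), *Jund* (545), *Fos* (252), *Junb* (233), *Atf3* (63.5) and *Fosl1* (11.9), where *Jun* and *Fosl2*, *Fosl2* and *Fosb*, and *Fos* and *Junb* overlapped. *Fosl1* had the lowest mean in each of the 5 groups. At 2 days in SE mice each neighbouring pair in the order overlapped.

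In some groups the members tended to be high or low together in the same mouse. In SE 2 days, replicate 2 was higher than replicate 1 for 8 of 8 members, by a median of 2.17 times, and in SE + LEV 6 h and SE + LEV 2 days replicate 1 was higher for 7 of 8, by medians of 2.29 and 2.32 times. Over all genes tested, 44.8% were higher in SE 2 days replicate 2, 42.4% in SE + LEV 6 h replicate 1 and 44.7% in SE + LEV 2 days replicate 1. In SE 6 h the members were close between mice, with a median of 1.11 times and 5 of 8 higher in replicate 1. Replicate 1 of both LEV groups, with the higher family levels, was also the mouse with the higher choroid plexus markers (860 against 37.5 CPM and 1490 against 25.3 CPM), whereas SE 2 days replicate 2 was the mouse with the lower ones (22.5 against 65.9 CPM), and the part of these markers was not tested. The severity of SE in each mouse is not given in the labels.

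Across the 10 libraries, which share groups and therefore are not independent, the log2(CPM + 0.1) levels of *Fos* and *Fosb* had a Pearson r of 0.98, and those of *Fosl1* were closest to *Atf3* (0.95) and less close to *Fos* (0.83), *Fosb* (0.80) and *Fosl2* (0.73). *Jund* had r of 0.15 to 0.55 with the other members. Of 14213 other genes with a mean of at least 1 CPM, the 5 most like *Fosl1* were *Ifi202b* (0.99), *Myh9*, *Slc4a11* and *Rel* (0.98 each) and *Anxa2* (0.97). *Rel* encodes an NF-kappaB subunit and *Myh9* a non-muscle myosin heavy chain. *Ifi202b* had 0.10 and 0.14 CPM in pre-SE, 6.61 and 20.87 CPM in SE 2 days and 8.23 and 0.94 CPM in SE + LEV 2 days. Its higher mouse at 2 days was that of *Fosl1* in both groups, but it was picked by its r over these same libraries, so this adds no support. The r values include the pre-SE libraries, where *Fosl1* had 1 tag each. The 5 most like *Fos* were *Ier2*, *Tiparp* and *Ppan* (0.96 each) and *Arid5b* and *Hhat* (0.95 each), of which *Ier2* is an immediate early gene. The 2 lists had no gene in common.

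Other basic leucine zipper genes were followed as a list. Of 20 relatives, 17 were tested (all except *Batf*, *Batf3* and *Mafg*), and 4 were called higher at 6 h (2.76% of all genes), with a median logFC of 0.25 over the 17. *Maff*, a small Maf protein without a transactivation domain, rose from 1.03 and 0.52 CPM to 45.96 and 40.84 CPM (logFC 5.70, limma adjusted p = 0.0014). *Crem*, which also gives rise to the cyclic AMP early repressor, rose by 2.11 (limma adjusted p = 0.01), *Bach1*, a repressor that pairs with small Maf proteins, by 1.71 (limma adjusted p = 0.0064) and *Mafk* by 1.66 (limma adjusted p = 0.047). At 2 days *Maff* (3.51) and *Bach1* (1.48) were called (5.07% of all genes), and *Maff* (−2.19, limma adjusted p = 0.034) and *Crem* (−1.62, limma adjusted p = 0.028) were lower in SE 2 days than in SE 6 h. The counts rested on single libraries, since 1 to 3 of the 17 were called at 6 h when any of the 4 libraries compared was left out, *Maff* being among them each time, and the calls of *Maff* and *Crem* between 2 days and 6 h were lost when any of the 4 SE libraries was left out. None of the 17 was called between LEV and SE mice at either time by limma (1 lower at an unadjusted p under 0.05 at each time, against 3.42% and 1.39% of all genes), edgeR or DESeq2. Values for *Maff* with LEV were 42.73 and 15.18 CPM at 6 h and 6.08 and 4.56 CPM at 2 days.

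Of the kinases and factors that act upstream of AP-1, few were called at the RNA level. Among 16 genes of the ERK, JNK and p38 pathways and of serum response factor with its partners, limma called 1 in SE mice against pre-SE. This was *Elk3*, an ETS factor of the ternary complex at serum response elements, called at both times (logFC 1.83, limma adjusted p = 0.049 at 6 h and 2.51, limma adjusted p = 0.0072 at 2 days). Its levels were 3.79 and 4.33 CPM in pre-SE, 15.2 and 14.05 CPM in SE 6 h and 17.6 and 31.48 CPM in SE 2 days. Set beside this 1 of 16, calls of a higher level made up 2.76% of all genes for SE 6 h and 5.07% for SE 2 days. The median logFC of the 16 was −0.21 at 6 h and −0.17 at 2 days, against −0.13 and −0.03 over all genes. Single estimates ranged from −0.77 to 1.83 at 6 h and from −1.05 to 2.51 at 2 days. DESeq2 called 2 higher at 6 h, 1 lower in SE 2 days than in SE 6 h, and 3 lower at 2 days than at 6 h averaged over treatments. The share of all genes that DESeq2 called was not taken. *Elk3* lost its call at 6 h when any of the 4 libraries compared was left out, without SE 2 days replicate 1 or 2 or SE + LEV 2 days replicate 1, with a pseudocount of 0.5 or 1, without the filter and with the replicate block, and at 2 days without pre-SE replicate 1 or SE 2 days replicate 2. None of the 16 was called between LEV and SE mice at either time by limma (0 at an unadjusted p under 0.05), edgeR or DESeq2.

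Genes known to carry AP-1 sites or to respond to AP-1 were also taken as a list, chosen with earlier results of these data known. Of 20 such genes 17 were tested (all except *Mmp9*, *Mmp10* and *Tnc*), of which 10 were called higher at 6 h (2.76% of all genes, median logFC of the list 2.52) and 15 at 2 days (5.07% of all genes, median 4.08). *Timp1*, an inhibitor of matrix metalloproteinases, went from 0.17 and 0.19 CPM in pre-SE to 14.79 and 13.84 CPM at 6 h (logFC 5.69, limma adjusted p = 0.0071) and to 59.61 and 231.98 CPM at 2 days (8.72, limma adjusted p = 0.00092). The chemokine gene *Ccl2* rose by 5.62 at 6 h and 6.72 at 2 days (limma adjusted p = 0.003 and 0.0011), and *Spp1*, the osteopontin gene, by 6.96 at 2 days (limma adjusted p = 0.0057). The cytokine gene *Lif* had 0 and 0.06 CPM in pre-SE, 3.08 and 3.29 CPM at 6 h and 19.16 and 9.79 CPM at 2 days. Between SE 2 days and SE 6 h *Cd44*, *Vim* and *Gfap*, named here after their values were seen, were called higher and none was called lower, while DESeq2 called 8 higher. The share of all genes called higher in this comparison is not given here for either test, so these counts cannot be set against it. *Vim* and *Gfap* are intermediate filament genes of reactive astrocytes. Leaving out libraries changed these counts. At 6 h 5 were called without either pre-SE mouse, 3 without SE 6 h replicate 1 and 4 without SE 6 h replicate 2, with 14 called by DESeq2 and 6 with a pseudocount of 1. At 2 days 10 were called without SE 2 days replicate 2 and 11 to 14 without any other of the 4 libraries compared. The 3 calls between 2 days and 6 h fell to 0 without SE 2 days replicate 2 and to 1 without either SE 6 h mouse.

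With LEV, none of the 17 was called by limma, edgeR or DESeq2 at either time, with 7 at 6 h and 6 at 2 days lower at an unadjusted p under 0.05 in limma (3.42% and 1.39% of all genes). Their estimates were lower for 14 of 17 at 6 h (median logFC −1.01) and for 17 of 17 at 2 days (median −1.09). *Timp1* had 1.93 and 3.89 CPM in SE + LEV 6 h and 181.38 and 25.01 CPM in SE + LEV 2 days. Replicate 1 of SE + LEV 2 days was its higher mouse, as it was for *Fosl1*. The targets are a list of genes with many other inputs, and their RNA levels do not measure the binding of AP-1.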

How the data were processed

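Total RNA of whole hippocampi was made into random-primed CAGE libraries and sequenced. The authors mapped the reads to mm9 with BWA 0.7.17 and HISAT2 2.0.5, clustered tags with RECLU, joined clusters between replicates and deposited 1 table of CPM per gene for the 10 libraries. How clusters were summed to genes, and whether strand was used, is not given in the sources used here. No column of the table was left unused (0 columns). The CPM are rounded to 2 decimals, and all values (100%) came out as whole tags within that rounding, which gave each library's total. CPM is relative to the tags on listed genes, and the depth set the precision of low genes such as *Fosl1*.

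Genes reaching 0.1 CPM in no fewer than 2 libraries were fitted as log2(CPM + 0.1) with limma 3.58.1 (lmFit and eBayes with trend, R 4.3.3) over all 5 groups without covariates. Alternatives were pseudocounts of 0.5 and 1, a filter of 1 CPM and none, median-of-ratios scaling, only the groups compared, the replicate number as a block, each library left out, and edgeR 4.0.16 and DESeq2 1.42.0 on the recovered tags. A block with the replicate numbers of SE + LEV 2 days crossed, and the motif TGACGT, were added after the data had been seen. The same scripts were tested on simulated data. Shares of all genes called were taken from the main limma fit alone. Counts from edgeR, DESeq2 and the other alternatives therefore have no such share beside them. Ratios of *Fosl1* to other members were compared with exact two-sided permutation tests (SciPy 1.17.1). Intervals of tag shares and ratios are exact 95% intervals and cover counting error only. Promoter sequences are from RefSeq (GRCm38.p6) and were placed in mm9 by exact match, and gene positions are from the mm9 annotation.

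The members and gene lists were chosen with earlier results of these data known. All 8 members are named. Of each other list the 5 called genes with the largest absolute logFC are named, except 1 gene that is not reported here, and for likeness the 5 genes with the highest r to *Fosl1* and to *Fos*.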

Additional observations from a re-analysis of the deposited data

How the results depend on the processing

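Of 20 results in which a member was called, 400 values under the alternatives included 0 that changed direction, 67 that lost the call and 333 that kept it. Counts of members called that moved by over 1.5 times were as follows, and the cause was not tested. Between SE 2 days and SE 6 h, 3 members were called lower with only the groups compared and 4 with DESeq2, against 0. Between SE + LEV 6 h and pre-SE, 0 were called with a pseudocount of 0.5 or 1 or with the replicate block, 2 with the crossed block and 7 with DESeq2, against 1. Between SE + LEV 2 days and pre-SE, 0 were called with a pseudocount of 0.5 or 1 or with only the groups compared, against 1. For the averaged LEV effect, DESeq2 called 6, against 0. With each library left out in turn, the counts ranged from 5 to 7 for SE 6 h against pre-SE, 1 to 6 for SE 2 days against pre-SE, 0 to 1 for SE 2 days against SE 6 h, 0 to 3 for SE + LEV 6 h and 0 to 2 for SE + LEV 2 days against pre-SE, 0 to 1 for the averaged LEV effect and 0 to 4 for 2 days against 6 h averaged over treatments. Where a group is left with 1 mouse, the fit assumes that it varies like the other groups.

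Replicate numbers do not pair the mice. The deviations of same-numbered mice correlated at −0.44 to 0.34 over pairs of groups, and the labels name no shared litter or day. With the replicate number as a block, 7 members were called in SE 6 h and 5 in SE 2 days against pre-SE, 4 in the comparison of 2 days with 6 h averaged over treatments, 0 in SE 2 days against SE 6 h, 0 in SE + LEV 6 h and 1 in SE + LEV 2 days against pre-SE, and 0 for LEV against SE.

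Directions that changed concern values that were not called. The difference between the LEV effects at 2 days and 6 h changed sign for *Fos* (0.01 with a pseudocount of 1) and for *Fosl1* (0.03 and 0.06 with pseudocounts of 0.5 and 1, and 0.31 with edgeR and with DESeq2). The LEV difference of the log2 ratio of *Fosl1* to *Fos* became 0.05 and 0.21 with pseudocounts of 0.5 and 1, and that to *Fosb* 0.10 with 1. With libraries left out, the difference between the LEV effects ranged from −0.94 to 0.90 for *Fos*, −1.39 to 1.07 for *Fosb*, −1.37 to 1.32 for *Fosl1*, −0.23 to 1.19 for *Fosl2*, −0.68 to 0.40 for *Jun*, −0.91 to 0.64 for *Junb*, −0.55 to 0.95 for *Jund* and −1.37 to 0.93 for *Atf3*. For *Fosl1* it ranged from −0.80 to 1.02 in SE 2 days against SE 6 h and from −0.57 to 0.77 in 2 days against 6 h averaged over treatments. *Junb* ranged from −0.20 to 1.31 in SE + LEV 2 days against pre-SE, and *Atf3* from −1.85 to 0.37 in SE 2 days against SE 6 h. *Jund* ranged from −0.84 to 0.66 in SE 2 days and −0.51 to 0.99 in SE + LEV 2 days against pre-SE, from −0.42 to 1.09 for LEV at 2 days and from −0.14 to 0.61 for the averaged LEV effect. The LEV difference of the log2 ratio ranged from −0.65 to 0.44 for *Fosl1* to *Fos* and from −0.93 to 0.47 for *Fosl1* to *Fosb*.

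With 2 mice in each group, differences between LEV and SE mice of the size seen here did not pass the adjustment over all genes in limma or edgeR, other than that of *Fosl1* in limma without SE + LEV 2 days replicate 1. Depth limits mainly *Fosl1* before SE, where 1 tag per library is below the limit of detection.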
